A study of Macaca mulatta with 12 samples.

Results

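The SLC25 genes encode the mitochondrial carrier family, the proteins that move nucleotides, phosphate, carboxylates, amino acids, acyl-carnitines, cofactors and metal ions across the inner mitochondrial membrane. They were taken as every row of the expression table whose symbol is SLC25A followed by a number, which gave 47 of 16745 genes. All 47 matched a symbol of the macaque reference list. Of these, 36 passed the filter on low values, which asked that a gene's mean over the 12 libraries exceed the table's lowest value by 1 log2 unit, and 11 did not. SLC25A10, a dicarboxylate carrier, was not analysed here.

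Carriers of this family share a fold made of repeated pairs of membrane helices, and most exchange a substrate of the matrix for one of the cytosol. In heart muscle the adenine nucleotide translocases export ATP made by oxidative phosphorylation against ADP, the phosphate carrier supplies its phosphate, the malate-aspartate shuttle brings in reducing equivalents from glycolysis, and the carnitine carrier admits fatty acids for oxidation. The roles given here are those described in human or mouse.

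RNA was sequenced from rhesus macaque cultures labelled as cardiomyocytes made from induced pluripotent stem cells, in 4 groups of 3 libraries. They were engineered heart tissue (EHT, a small tissue formed in 3 dimensions) in hypoxia, EHT in normoxia, monolayer in hypoxia and monolayer in normoxia, all fed RPMI with B27 containing insulin. Hypoxia meant an anaerobic pouch for 24 hours and, per the labels, another 24 hours once the medium had been changed. The same treatment text is attached to the normoxia samples, so whether they too had a medium change is not stated, nor is the time of RNA extraction, and low oxygen and the medium change cannot be told apart. The cell line, its genotype and the source of each replicate are not given, so p-values cover the spread between these samples alone, which may be technical.

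Libraries held 4154346 to 11298841 reads, recovered from the deposited values. EHT hypoxia replicate 3 stood apart, with a correlation of at most 0.92 with the others of its group. All 9 tested hypoxia-inducible genes were called higher in hypoxia in both cultures, and with library totals 9 in EHT and 8 in monolayer, where CA9 was missed (1.02, adjusted p = 0.0892). The cell type label was weakly borne out: 10 cardiomyocyte markers summed to 19.7 to 584 CPM (reads as a share of the library total) in EHT hypoxia, 12.8 to 141 in EHT normoxia, 3907 to 4331 in monolayer hypoxia and 431 to 2681 in monolayer normoxia. MYL2 had 0 reads in both EHT groups, while 8 fibroblast markers summed to at least 33097 CPM in every library. These markers move with both factors, and in bulk RNA fewer cells of a type and less RNA per cell cannot be told apart. Their part in the SLC25 results was not tested.

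Each library's log2-scale values were centred on its median over expressed genes, so a centred value is a level relative to the typical expressed gene of that library, and a difference is relative to the typical gene. A gene was called where limma's p, adjusted over 12084 genes by Benjamini-Hochberg, was under 0.05. As a second scale, reads were divided by library totals, an alternative chosen after the data were seen. On it the median of all genes moved by -0.34 for EHT against monolayer in normoxia, 0.05 in hypoxia, -0.63 for hypoxia against normoxia in monolayer, -0.16 in EHT and 0.43 for the interaction.

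**Figure D1:**
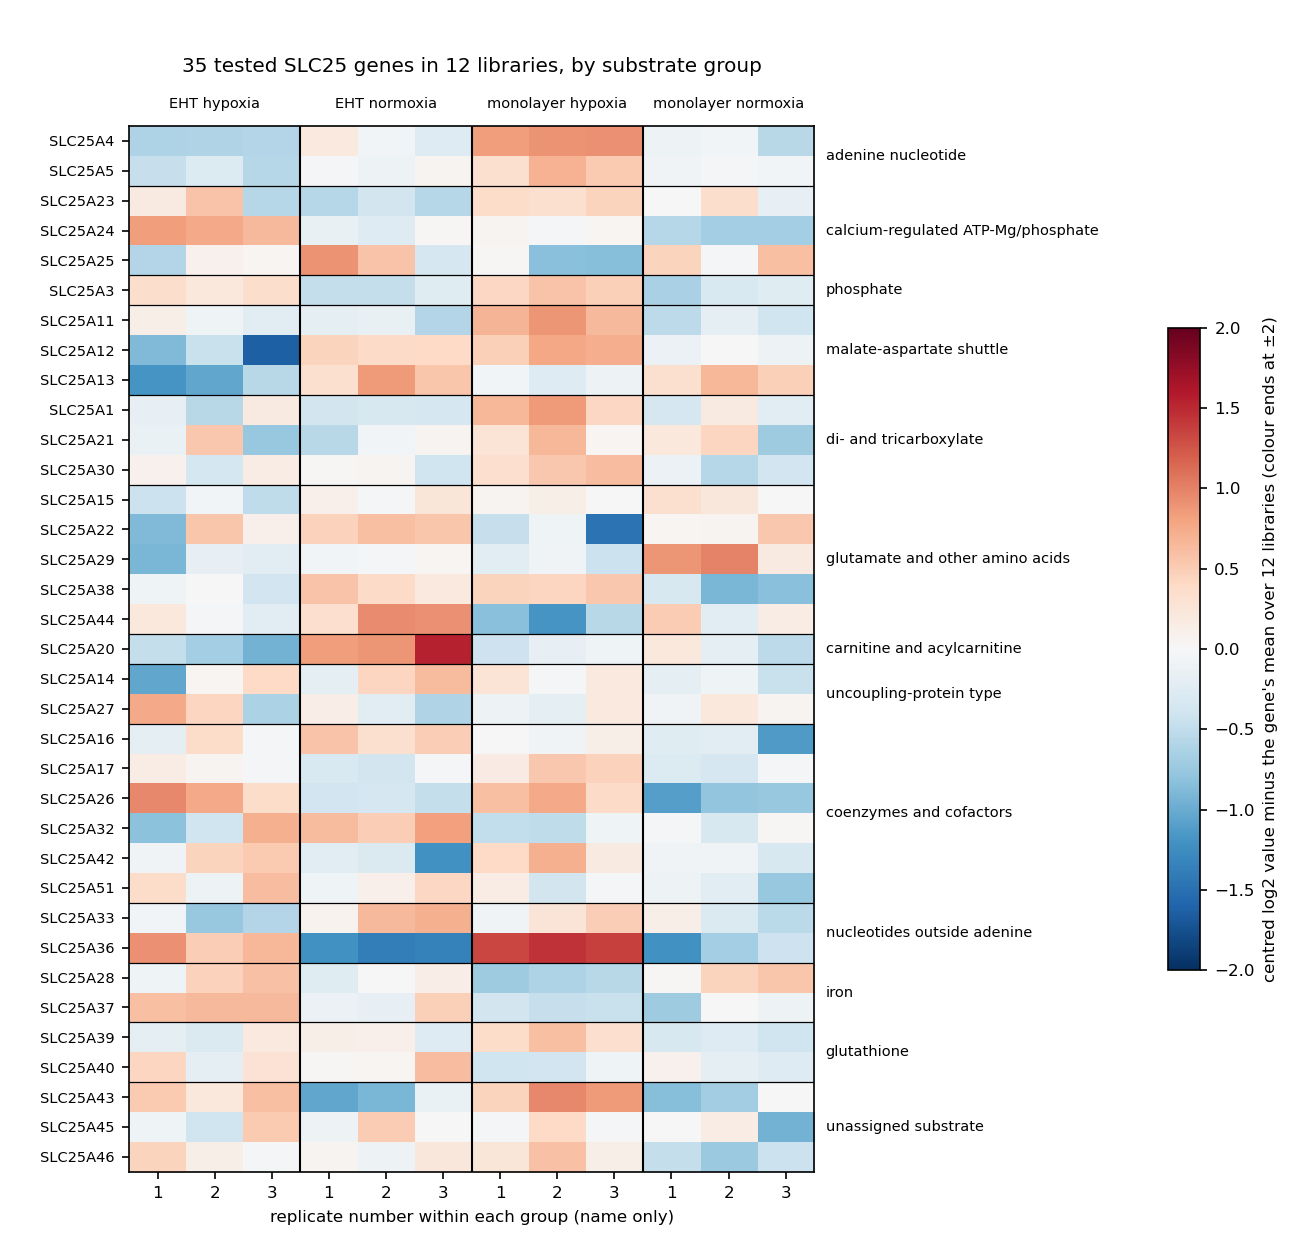
Centred log2 values of 35 tested SLC25 genes (rows, by substrate group) in the 12 libraries (columns, 3 per group), each minus the gene's own mean, in colour from blue (low) to red (high). SLC25A36 is red in all 6 hypoxia libraries, and SLC25A4 is red in the 3 monolayer hypoxia libraries and blue in the 3 EHT hypoxia libraries.

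Under hypoxia some carriers had opposite differences in the 2 cultures and others had like ones. In EHT, 7 of 36 members rose in hypoxia (19.4%, where 19.5% of all genes tested did) and 8 fell (22.2%, against 16% of all genes). In monolayer, 15 rose (41.7%, against 27.8% of all genes) and 4 fell (11.1%, against 18.6%). With median-of-ratios scaling and with voom each of these calls stood. Over all genes 2892 were higher and 2920 lower with median-of-ratios scaling, and 3150 and 3063 with voom. Quantile normalization lost the calls of SLC25A1, SLC25A3, SLC25A5 and SLC25A13. The split turned with library totals and on uncentred values. With library totals 3 were higher (8.33%, against 9.33% of all genes) and 13 lower (36.1%, against 49.8%). On uncentred values 1 was higher (2.78%, against 4.43%) and 5 lower (13.9%, against 19.9%). The median difference of the members was 0.01 log2 in EHT and 0.43 log2 in monolayer, beside 0.03 and 0.07 for all genes. The interaction, which is the hypoxia difference in EHT minus that in monolayer, was called lower for 8 members (22.2%, against 14.1% of all genes) and higher for 1 (2.8%, against 10.3%). With library totals it was lower for 4 (11.1%, against 5.82% of all genes) and higher for 3 (8.33%, against 25.4%). On uncentred values it was lower for 0, against 0.844% of all genes, and higher for 1 (2.78%, against 9.49%). With median-of-ratios scaling and with voom each of the 9 centred interaction calls stood. Over all genes 1648 were higher and 1616 lower with median-of-ratios scaling, and 1431 and 1565 with voom. Quantile normalization lost the interaction call of SLC25A11. Without EHT hypoxia replicate 3 the interaction was called for 14 members in place of 9. Over all genes that omission gave 1838 higher and 2238 lower, in place of 1248 and 1708.

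Between the cultures, EHT in hypoxia had 5 members above monolayer in hypoxia (13.9%, against 18.4% of all genes) and 10 below it (27.8%, against 19.7%). In normoxia EHT had 7 members above monolayer (19.4%, against 22.8% of all genes) and 1 below it (2.8%, against 18.5%). The normoxia split differed between scales. With library totals 2 members were higher (5.56%, against 10.9% of all genes) and 7 lower (19.4%, against 36.3%). With median-of-ratios scaling 4 were higher (11.1%, against 19.1%) and 3 lower (8.33%, against 24.7%), and with voom 5 were higher (13.9%, against 21.1%) and 4 lower (11.1%, against 25.9%). On uncentred values 0 were higher, against 2.69% of all genes, and 3 lower (8.33%, against 25.6%). The centred count of members also changed with single libraries. It was 3 without EHT normoxia replicate 3 and 13 without EHT hypoxia replicate 3. It was 5 without EHT normoxia replicate 1, EHT normoxia replicate 2 or monolayer normoxia replicate 2. All genes moved the same way: without EHT normoxia replicate 3, 2398 were higher and 1930 lower, in place of 2750 and 2234. Without EHT hypoxia replicate 3, 3215 were higher and 2687 lower. In all, 25 members were called in at least 1 of the 5 comparisons and 11 in none. The like share of all genes was not computed, so this count describes the members only. In each comparison 24.5% to 46.5% of all genes were called.

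The whole family took 0.134% ± 0.009 of reads in EHT hypoxia, 0.131% ± 0.014 in EHT normoxia, 0.156% ± 0.004 in monolayer hypoxia and 0.157% ± 0.011 in monolayer normoxia (SD, n = 3 each). EHT was lower than monolayer, with a difference of -0.0237 percentage points (exact permutation test within oxygen conditions, p = 0.01, two-sided). In normoxia alone it was -0.0254 (exact permutation p = 0.2), with the cultures overlapping, and in hypoxia alone -0.0221 (exact permutation p = 0.1). Scaled by library totals, the median of all genes also differed between EHT and monolayer, by -0.34 log2 in normoxia and 0.05 in hypoxia. Hypoxia and normoxia differed by 0.0011 percentage points (exact permutation p = 0.84). SLC25A3, the phosphate carrier, alone held 33.3% ± 0.8 of the family's reads in EHT hypoxia, 25.2% ± 1.5 in EHT normoxia, 30.2% ± 0.1 in monolayer hypoxia and 27.3% ± 2.3 in monolayer normoxia (SD, n = 3 each). These are shares of reads, not levels per length.

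The adenine nucleotide translocases showed the opposed pattern. SLC25A4, the isoform typical of heart and skeletal muscle, had centred log2 values of 1.22, 1.24 and 1.26 in EHT hypoxia, against 2.03, 1.79 and 1.58 in EHT normoxia. Monolayer values were 2.69, 2.74 and 2.76 in hypoxia, against 1.74, 1.78 and 1.28 in normoxia. EHT hypoxia was lowest and monolayer hypoxia highest, and neither overlapped another group. SLC25A4 rose by 1.13 ± 0.15 log2 in monolayer hypoxia (SE, adjusted p = 7.64e-05) and 0.39 with library totals (adjusted p = 0.04). In EHT hypoxia it fell by 0.56 ± 0.15 log2 (adjusted p = 0.0125), a call lost without EHT normoxia replicate 1 (adjusted p = 0.0641). The interaction was -1.69 ± 0.22 (adjusted p = 0.000297), and in hypoxia SLC25A4 was lower in EHT than in monolayer by -1.49 ± 0.15 (adjusted p = 2.50e-05).

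SLC25A5, the isoform of most dividing and non-muscle cells, had 2.06, 2.25 and 1.95 in EHT hypoxia, against 2.49, 2.43 and 2.58 in EHT normoxia. The monolayer libraries held 2.85, 3.22 and 3.04 in hypoxia, against 2.45, 2.48 and 2.48 in normoxia. The order of groups matched that of SLC25A4, with the normoxia groups of both cultures overlapping. It was 0.95 ± 0.12 log2 lower in EHT than in monolayer under hypoxia, a difference of -0.95 (adjusted p = 0.000138). Its rise in monolayer hypoxia, 0.57 ± 0.12 log2 (adjusted p = 0.00248), turned to -0.17 with library totals (adjusted p = 0.299), and the interaction of -0.98 ± 0.18 (adjusted p = 0.00205) had an adjusted p of 0.0584 there. Its fall in EHT hypoxia, -0.41 ± 0.12 (adjusted p = 0.0219), was lost without EHT hypoxia replicate 1 or 3 or EHT normoxia replicate 1 or 3 (adjusted p up to 0.0671). SLC25A6, another widely expressed translocase, had 0 reads in all 12 libraries, and SLC25A31, the germ-line form, had at most 4 reads in any. How reads shared with copies and pseudogenes of these genes were counted is not given in the sources used here.

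**Figure D2:**
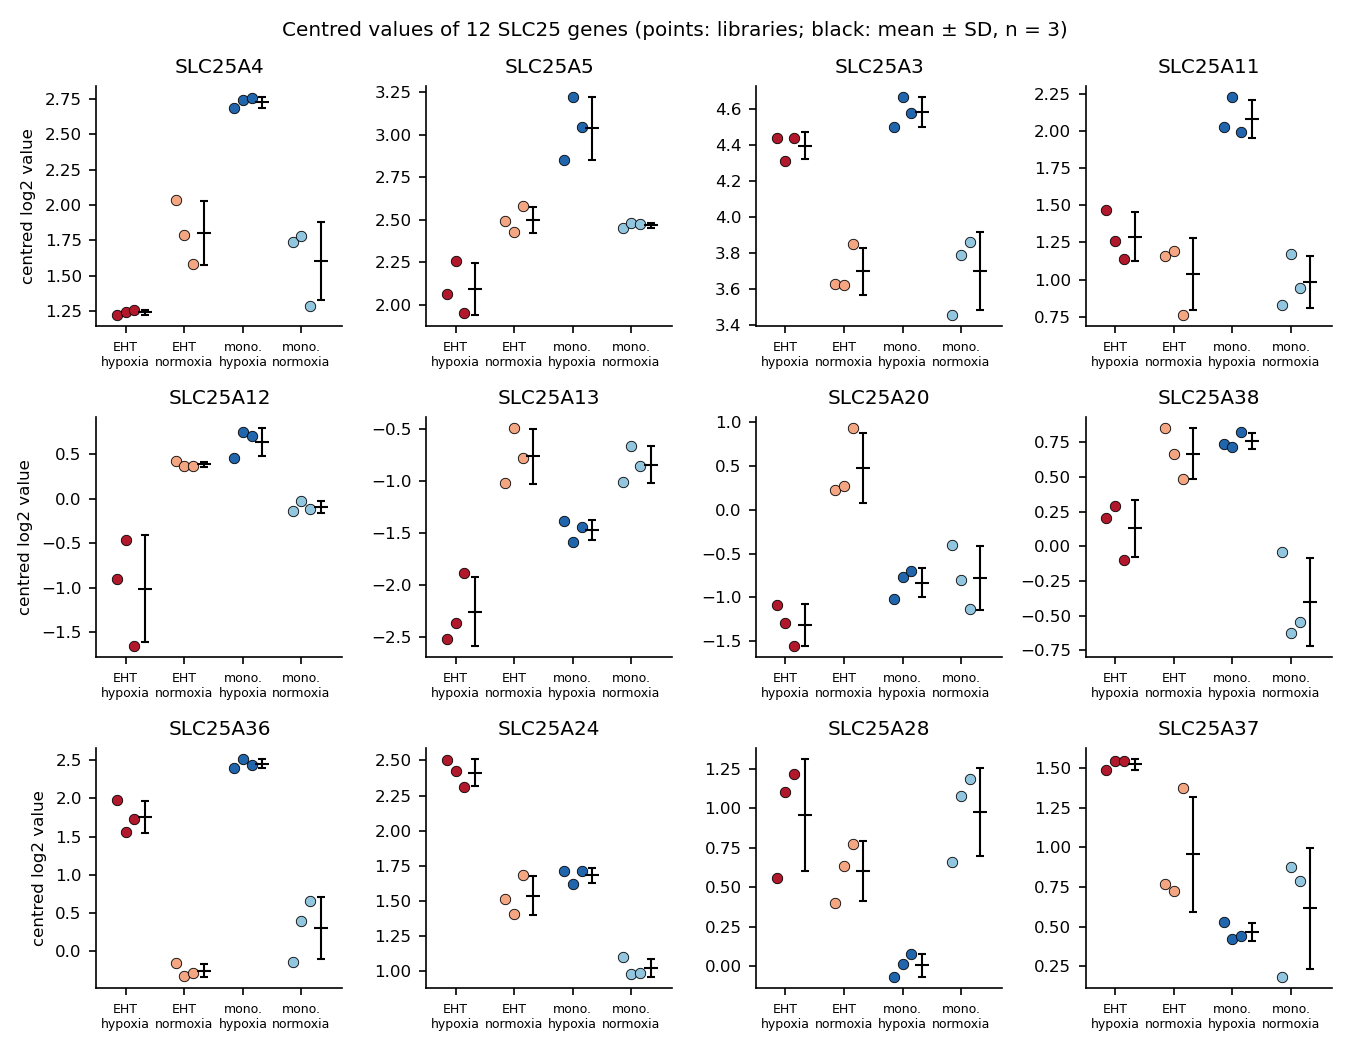
Centred log2 values of 12 SLC25 genes in each library (points) with the mean ± SD of each group (black, n = 3), the groups being EHT hypoxia, EHT normoxia, monolayer hypoxia and monolayer normoxia ("mono." on the axis). SLC25A4, SLC25A5, SLC25A12 and SLC25A38 are lower in EHT hypoxia than in EHT normoxia, while SLC25A36 is above 1.5 in all 6 hypoxia libraries and under 0.7 in all 6 normoxia libraries.

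The phosphate carrier SLC25A3, which also carries copper, rose in hypoxia in both cultures. It had 4.44, 4.31 and 4.44 in EHT hypoxia, against 3.63, 3.62 and 3.85 in EHT normoxia. Its monolayer values were 4.50, 4.67 and 4.58 in hypoxia, against 3.45, 3.79 and 3.86 in normoxia. All hypoxia libraries lay above all normoxia libraries. The differences were 0.70 ± 0.13 log2 in EHT (adjusted p = 0.00134) and 0.88 ± 0.13 in monolayer (adjusted p = 0.000155). With library totals the EHT difference was 0.43 (adjusted p = 0.0286) and the monolayer one 0.15 (adjusted p = 0.389).

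The calcium-regulated ATP-Mg/phosphate carriers, which set the size of the matrix adenine nucleotide pool, had 3 of 4 members tested, and SLC25A24 was the 1 that was called. It had 2.51, 2.42 and 2.31 in EHT hypoxia, against 1.51, 1.41 and 1.68 in EHT normoxia. In monolayer it had 1.71, 1.62 and 1.71 in hypoxia, against 1.10, 0.98 and 0.99 in normoxia. Every EHT hypoxia library lay above every other library. SLC25A24 rose by 0.88 ± 0.12 log2 in EHT hypoxia (adjusted p = 0.000123) and was 0.73 ± 0.12 higher in EHT than in monolayer under hypoxia (adjusted p = 0.000498), and both calls stood with library totals. In monolayer hypoxia it was 0.66 ± 0.12 higher on centred values (adjusted p = 0.000597), but the difference was -0.07 with library totals. In normoxia it was 0.51 ± 0.12 higher in EHT than in monolayer (adjusted p = 0.00405), but 0.14 with library totals (adjusted p = 0.453) and -0.22 on uncentred values. SLC25A23 and SLC25A25 passed no test, with differences of -0.89 to 0.56 log2, and SLC25A41 lay under the filter.

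The malate-aspartate shuttle has 3 carriers here, and all 3 were called lower in EHT than in monolayer under hypoxia, SLC25A13 less firmly. In that comparison 19.7% of all genes were called lower. SLC25A12, the aspartate/glutamate carrier of heart, muscle and brain, had -0.90, -0.47 and -1.66 in EHT hypoxia, against 0.42, 0.37 and 0.37 in EHT normoxia. Monolayer values were 0.46, 0.75 and 0.71 in hypoxia, against -0.14, -0.02 and -0.12 in normoxia. EHT hypoxia was below every other group without overlap, and its replicate 3 was lowest, with 22 reads. SLC25A12 fell by 1.40 ± 0.24 log2 in EHT hypoxia (adjusted p = 0.000792), and without any 1 library this difference ran from -1.67 to -1.07 and was called each time. Its rise in monolayer hypoxia, 0.73 ± 0.24 (adjusted p = 0.0251), was 0.01 with library totals and was lost without monolayer hypoxia replicate 2 or 3 or monolayer normoxia replicate 1 or 3 (adjusted p up to 0.0826). Its interaction of -2.13 ± 0.34 (adjusted p = 0.00106) was -1.64 with library totals (adjusted p = 0.003).

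SLC25A13, the aspartate/glutamate carrier best known from liver, fell in hypoxia in both cultures. It had -2.52, -2.37 and -1.89 in EHT hypoxia, against -1.02, -0.49 and -0.78 in EHT normoxia. The monolayer libraries held -1.39, -1.59 and -1.44 in hypoxia, against -1.02, -0.67 and -0.86 in normoxia. The hypoxia libraries lay below the normoxia libraries in each culture, on 10 to 18 reads per EHT hypoxia library. The difference was -1.495 ± 0.24 log2 in EHT (adjusted p = 0.000403). In monolayer it was -0.63 ± 0.24 (adjusted p = 0.0433), lost when 8 of the 12 libraries were left out in turn (adjusted p up to 0.135) but -1.32 with library totals (adjusted p = 0.000678). Under hypoxia SLC25A13 was -0.79 ± 0.24 in EHT against monolayer (adjusted p = 0.0193). That call was lost without EHT hypoxia replicate 1 or 2 or monolayer hypoxia replicate 1 or 3 (adjusted p up to 0.0621). The interaction was not called for SLC25A13 (-0.87, adjusted p = 0.0757).

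SLC25A11, the oxoglutarate/malate carrier of the same shuttle, had 1.47, 1.26 and 1.14 in EHT hypoxia, against 1.16, 1.19 and 0.76 in EHT normoxia. Its monolayer values were 2.02, 2.23 and 1.99 in hypoxia, against 0.83, 1.17 and 0.95 in normoxia. The monolayer hypoxia libraries were above all others, and the EHT groups overlapped. It rose by 1.10 ± 0.16 log2 in monolayer hypoxia (adjusted p = 0.000113), or 0.37 with library totals (adjusted p = 0.0554), and was -0.79 ± 0.16 in EHT against monolayer under hypoxia (adjusted p = 0.00192). Of the shuttle's enzymes, which pass malate, aspartate and glutamate between both compartments, 3 of 4 were lower in EHT than in monolayer under hypoxia. They were MDH1 (-1.40), MDH2 (-1.05) and GOT2 (-1.42), named after their values were seen. Of all genes, 19.7% were lower in that comparison and 14.1% had a lower interaction. GOT2, the matrix aspartate aminotransferase, fell by 1.89 log2 in EHT hypoxia, and the interaction was lower for MDH1, MDH2 and GOT2, at -0.81, -1.15 and -1.43 log2. With library totals the 3 differences under hypoxia stood, and of the interactions that of MDH2 did (-0.68).

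Among carriers of di- and tricarboxylates, SLC25A1 exports citrate for fatty acid and sterol synthesis. It had 1.48, 1.09 and 1.82 in EHT hypoxia, against 1.28, 1.32 and 1.31 in EHT normoxia. In monolayer it had 2.31, 2.51 and 2.06 in hypoxia, against 1.32, 1.83 and 1.43 in normoxia. Monolayer hypoxia was above the rest, and the EHT groups overlapped. SLC25A1 was -0.83 ± 0.19 log2 in EHT against monolayer under hypoxia (adjusted p = 0.00511) and rose by 0.77 ± 0.19 in monolayer hypoxia (adjusted p = 0.00576), which was 0.03 with library totals. SLC25A30 rose by 0.86 ± 0.19 in monolayer hypoxia (adjusted p = 0.00293), or 0.13 with library totals, and its lower level in EHT under hypoxia, -0.53 (adjusted p = 0.0436), was lost with library totals (adjusted p = 0.0749) and in 8 of 12 omissions of 1 library (adjusted p up to 0.159). SLC25A21, a carrier of oxodicarboxylates, was just inside the filter with 100 reads over all libraries and was not called. SLC25A14 and SLC25A27, relatives of the uncoupling proteins, were called in no comparison.

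SLC25A20, which exchanges acyl-carnitine for carnitine, had -1.08, -1.29 and -1.56 in EHT hypoxia, against 0.23, 0.27 and 0.93 in EHT normoxia. Monolayer values were -1.02, -0.77 and -0.70 in hypoxia, against -0.40, -0.80 and -1.13 in normoxia. EHT normoxia stood above every other library, and the monolayer groups overlapped. SLC25A20 fell by 1.79 ± 0.25 log2 in EHT hypoxia (adjusted p = 0.000168) and was 1.25 ± 0.25 higher in EHT than in monolayer in normoxia (adjusted p = 0.00169). In monolayer the hypoxia difference was -0.05 (adjusted p = 0.882), or -0.77 with library totals, where it was called (adjusted p = 0.0238). The interaction was -1.73 ± 0.35 (adjusted p = 0.004), and this call, the fall in EHT and the higher level in normoxia stood with library totals, while on uncentred values the fall in EHT alone did. CPT1A, which makes acyl-carnitines at the outer membrane, fell by 1.69 log2 in EHT hypoxia and was higher in EHT than in monolayer by 3.35 in normoxia and by 1.10 in hypoxia. CPT1B, the muscle form, moved the other way in EHT hypoxia, where it rose by 0.97 log2.

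Carriers of glutamate and other amino acids had 5 of 7 members tested. SLC25A38 imports glycine for the first step of heme synthesis. It had 0.20, 0.29 and -0.10 in EHT hypoxia, against 0.85, 0.67 and 0.48 in EHT normoxia. The monolayer libraries held 0.74, 0.71 and 0.82 in hypoxia, against -0.04, -0.62 and -0.55 in normoxia. The groups did not overlap within a culture, and the order was reversed between cultures. It rose by 1.16 ± 0.18 log2 in monolayer hypoxia (adjusted p = 0.000264), or 0.44 with library totals (adjusted p = 0.0567), and its fall in EHT hypoxia of -0.54 ± 0.18 (adjusted p = 0.038) was lost in 7 of 12 omissions of 1 library (adjusted p up to 0.139). The interaction, -1.70 ± 0.26 (adjusted p = 0.0008), and the higher level of EHT against monolayer in normoxia, 1.07 ± 0.18 (adjusted p = 0.000625), stood without any 1 library and with library totals. In hypoxia SLC25A38 was -0.63 ± 0.18 in EHT against monolayer (adjusted p = 0.0178), lost without EHT hypoxia replicate 3 or monolayer hypoxia replicate 3 (adjusted p up to 0.0587).

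SLC25A44, a carrier of branched-chain amino acids, had -0.94, -1.20 and -1.38 in EHT hypoxia, against -0.81, -0.20 and -0.24 in EHT normoxia. Its monolayer values were -1.99, -2.33 and -1.70 in hypoxia, against -0.64, -1.38 and -0.9998 in normoxia. It fell by 0.998 ± 0.27 log2 in monolayer hypoxia (adjusted p = 0.00812), where no library overlapped. The fall in EHT hypoxia, -0.75 ± 0.27 (adjusted p = 0.0425), was lost in 6 of 12 omissions of 1 library (adjusted p up to 0.141), and the higher level in EHT against monolayer under hypoxia, 0.83 (adjusted p = 0.0262), in 4 (adjusted p up to 0.106). SLC25A29, a carrier of basic amino acids, had -1.50, -1.36 and -1.72 in monolayer hypoxia, against -0.41, -0.30 and -1.12 in monolayer normoxia. That fall, -0.92 ± 0.27 (adjusted p = 0.0147), was lost without monolayer hypoxia replicate 3 or monolayer normoxia replicate 1 or 2 (adjusted p up to 0.0652), and was -1.63 with library totals (adjusted p = 0.00024). The glutamate carrier SLC25A22 and the ornithine carrier SLC25A15 were called in no comparison.

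SLC25A36, a pyrimidine nucleotide carrier, had the largest hypoxia difference of the tested members in each culture. It had 1.98, 1.56 and 1.73 in EHT hypoxia, against -0.15, -0.32 and -0.28 in EHT normoxia. In monolayer it had 2.40, 2.52 and 2.44 in hypoxia, against -0.14, 0.39 and 0.66 in normoxia. The hypoxia libraries lay above the normoxia libraries by more than the range of any group. It averaged 70.1 ± 13.6 CPM in EHT hypoxia, 18.8 ± 1.7 in EHT normoxia, 106 ± 1 in monolayer hypoxia and 39.2 ± 10.9 in monolayer normoxia (SD, n = 3 each). SLC25A36 rose by 2.01 ± 0.19 log2 in EHT (adjusted p = 9.35e-06) and 2.15 ± 0.19 in monolayer (adjusted p = 3.05e-06), and both calls stood under library totals and on uncentred values. EHT lay below monolayer by -0.70 ± 0.19 in hypoxia (adjusted p = 0.0109) and by -0.55 ± 0.19 in normoxia (adjusted p = 0.0303). The normoxia call was lost without EHT normoxia replicate 2 or 3 or monolayer normoxia replicate 2 or 3 (adjusted p up to 0.130), but was -0.96 with library totals (adjusted p = 0.0015).

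SLC25A33, the other pyrimidine nucleotide carrier, had -1.55, -2.26 and -2.08 in EHT hypoxia, against -1.43, -0.85 and -0.78 in EHT normoxia. Monolayer values were -1.56, -1.25 and -1.01 in hypoxia, against -1.39, -1.79 and -2.04 in normoxia. It fell in EHT hypoxia by 0.95 ± 0.29 log2 (adjusted p = 0.0213), a call lost without EHT hypoxia replicate 2 or EHT normoxia replicate 2 or 3 (adjusted p up to 0.0788), and the monolayer groups overlapped. The interaction of -1.41 ± 0.40 (adjusted p = 0.0232) was lost in 5 of 12 omissions of 1 library (adjusted p up to 0.0614) and had an adjusted p of 0.111 with library totals.

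Of the carriers of coenzymes and cofactors, 7 of 8 were tested, and none of the 7 was called lower in any comparison on centred values. Of all genes, 14.1% to 19.7% were called lower in a comparison, so a count of none among 7 says little about this group. SLC25A26, which imports the methyl donor S-adenosylmethionine, had 2.06, 1.84 and 1.46 in EHT hypoxia, against 0.71, 0.76 and 0.62 in EHT normoxia. The monolayer libraries held 1.69, 1.86 and 1.47 in hypoxia, against -0.01, 0.30 and 0.34 in normoxia. Every hypoxia library was above every normoxia library. It rose by 1.09 ± 0.17 log2 in EHT (adjusted p = 0.000387) and 1.46 ± 0.17 in monolayer (adjusted p = 2.50e-05), with 0.85 and 0.74 on library totals, where both were still called. In normoxia the higher level in EHT than in monolayer, 0.49 ± 0.17 (adjusted p = 0.0371), was 0.11 with library totals (adjusted p = 0.662) and -0.25 on uncentred values, and was lost in 6 of 12 omissions of 1 library (adjusted p up to 0.128).

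SLC25A16, assigned to cofactor transport, was 0.998 log2 higher in EHT than in monolayer in normoxia (adjusted p = 0.0213), but 0.49 with library totals (adjusted p = 0.154), and the call was lost without EHT normoxia replicate 1 or 3 or monolayer normoxia replicate 3 (adjusted p up to 0.0877). SLC25A17, a carrier of the peroxisome, was 0.59 higher in monolayer hypoxia on centred values (adjusted p = 0.00777), but the difference was -0.13 with library totals. SLC25A42, a coenzyme A carrier, was 0.88 higher in EHT hypoxia (adjusted p = 0.046), lost with library totals (0.84, adjusted p = 0.0559) and in 10 of 12 omissions of 1 library (adjusted p up to 0.175), with a lowest difference of 0.56. The folate carrier SLC25A32 and the NAD carrier SLC25A51 were called in no comparison, while the folate enzyme MTHFD1L rose in hypoxia by 1.71 log2 in monolayer and by 1.004 in EHT, also with library totals (0.97 and 0.74).

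The mitoferrins import iron for heme and iron-sulfur clusters. SLC25A28 (mitoferrin 2) had 0.56, 1.10 and 1.22 in EHT hypoxia, against 0.40, 0.64 and 0.77 in EHT normoxia. Its monolayer values were -0.07, 0.01 and 0.07 in hypoxia, against 0.66, 1.08 and 1.19 in normoxia. Monolayer hypoxia was below every other library, and the EHT groups overlapped. SLC25A28 fell by 0.97 ± 0.20 log2 in monolayer hypoxia (adjusted p = 0.00151) and was 0.95 ± 0.20 higher in EHT than in monolayer under hypoxia (adjusted p = 0.00252). It was the 1 member with a higher interaction, 1.33 ± 0.28 (adjusted p = 0.0049), and these 3 calls stood in every alternative except uncentred values, where the fall in monolayer and the interaction stood.

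SLC25A37 (mitoferrin 1, the form of red cell precursors) had 1.48, 1.54 and 1.54 in EHT hypoxia, against 0.77, 0.72 and 1.37 in EHT normoxia. In monolayer it had 0.53, 0.42 and 0.44 in hypoxia, against 0.18, 0.88 and 0.79 in normoxia. It was 1.06 ± 0.20 log2 higher in EHT than in monolayer under hypoxia (adjusted p = 0.00158). The rise in EHT hypoxia, 0.57 ± 0.20 (adjusted p = 0.0453), was 0.32 with library totals (adjusted p = 0.297) and was lost in 8 of 12 omissions of 1 library (adjusted p up to 0.162). Among 6 genes of iron-sulfur and heme synthesis, ISCU, the cluster scaffold, was 1.502 log2 higher in EHT than in monolayer in normoxia. ALAS1, the first enzyme of heme synthesis, rose in EHT hypoxia by 0.94 log2. Its centred difference in monolayer hypoxia, 0.74, was 0.01 with library totals, where it was not called.

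SLC25A39, a glutathione carrier, had 1.20, 1.08 and 1.56 in EHT hypoxia, against 1.48, 1.46 and 1.12 in EHT normoxia. Monolayer values were 1.73, 1.96 and 1.70 in hypoxia, against 1.05, 1.12 and 0.96 in normoxia. It rose by 0.76 ± 0.16 log2 in monolayer hypoxia (adjusted p = 0.00164), or 0.03 with library totals, and the EHT groups overlapped. In hypoxia it was -0.52 ± 0.16 in EHT against monolayer (adjusted p = 0.0191), lost without EHT hypoxia replicate 1 or 2 or monolayer hypoxia replicate 2 (adjusted p up to 0.0833). Its relative SLC25A40 was called in no comparison. SLC25A43, whose substrate is not settled, rose in hypoxia by 1.14 ± 0.31 in EHT (adjusted p = 0.0115), lost without EHT normoxia replicate 1 (adjusted p = 0.0516), and by 1.27 ± 0.31 in monolayer (adjusted p = 0.0046), or 0.61 with library totals (adjusted p = 0.142). SLC25A46, an outer membrane protein of mitochondrial fission, rose by 0.86 ± 0.19 in monolayer hypoxia (adjusted p = 0.00219), or 0.15 with library totals. In normoxia SLC25A46 was 0.60 higher in EHT than in monolayer (adjusted p = 0.0201), but 0.22 with library totals (adjusted p = 0.393) and -0.13 on uncentred values, and the call was lost without EHT normoxia replicate 1 or 3 or monolayer normoxia replicate 2 (adjusted p up to 0.0755).

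**Figure D3:**
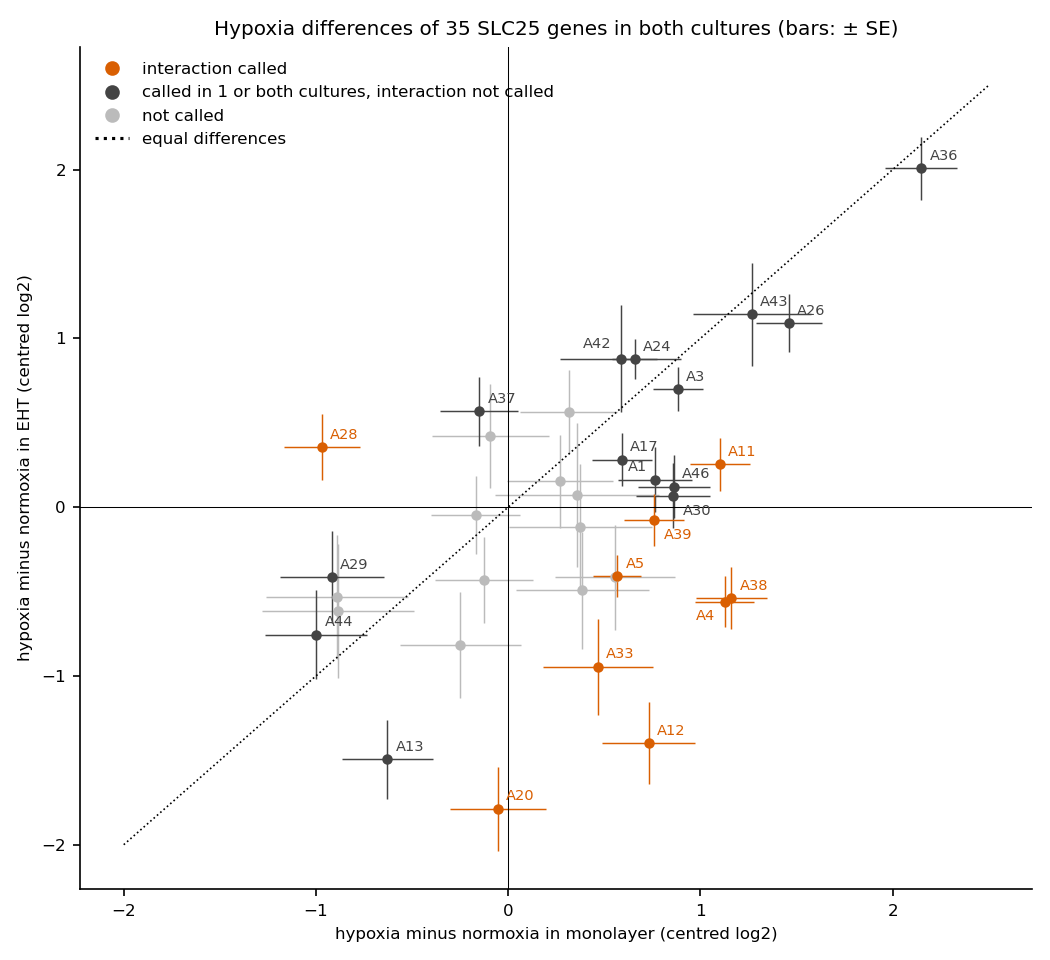
Hypoxia minus normoxia in EHT (vertical axis) against the same difference in monolayer (horizontal axis), in centred log2 with bars of ± SE, for 35 tested SLC25 genes. SLC25A36, SLC25A26, SLC25A43, SLC25A3 and SLC25A24 lie near the line of equal differences, and SLC25A4, SLC25A5, SLC25A12 and SLC25A38 lie where values are higher in monolayer and lower in EHT.

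Set side by side, the 2 hypoxia comparisons share no library. On centred values 5 members rose in both cultures (SLC25A3, SLC25A24, SLC25A26, SLC25A36 and SLC25A43) and 2 fell (SLC25A13 and SLC25A44), while 4 rose in monolayer and fell in EHT (SLC25A4, SLC25A5, SLC25A12 and SLC25A38). With library totals the rise in monolayer was still called for SLC25A4, SLC25A26 and SLC25A36 of these. SLC25A38 kept its sign, SLC25A12 was at 0.01, and SLC25A5 and SLC25A24 turned. The sign was shared between cultures for 23 of 36 members, or 63.9%, beside 64.2% of all genes. Pearson's r across the 36 members was 0.495, beside 0.372 across all genes tested. Genes are not independent replicates, so these are descriptions of the 2 comparisons.

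**Figure D4:**
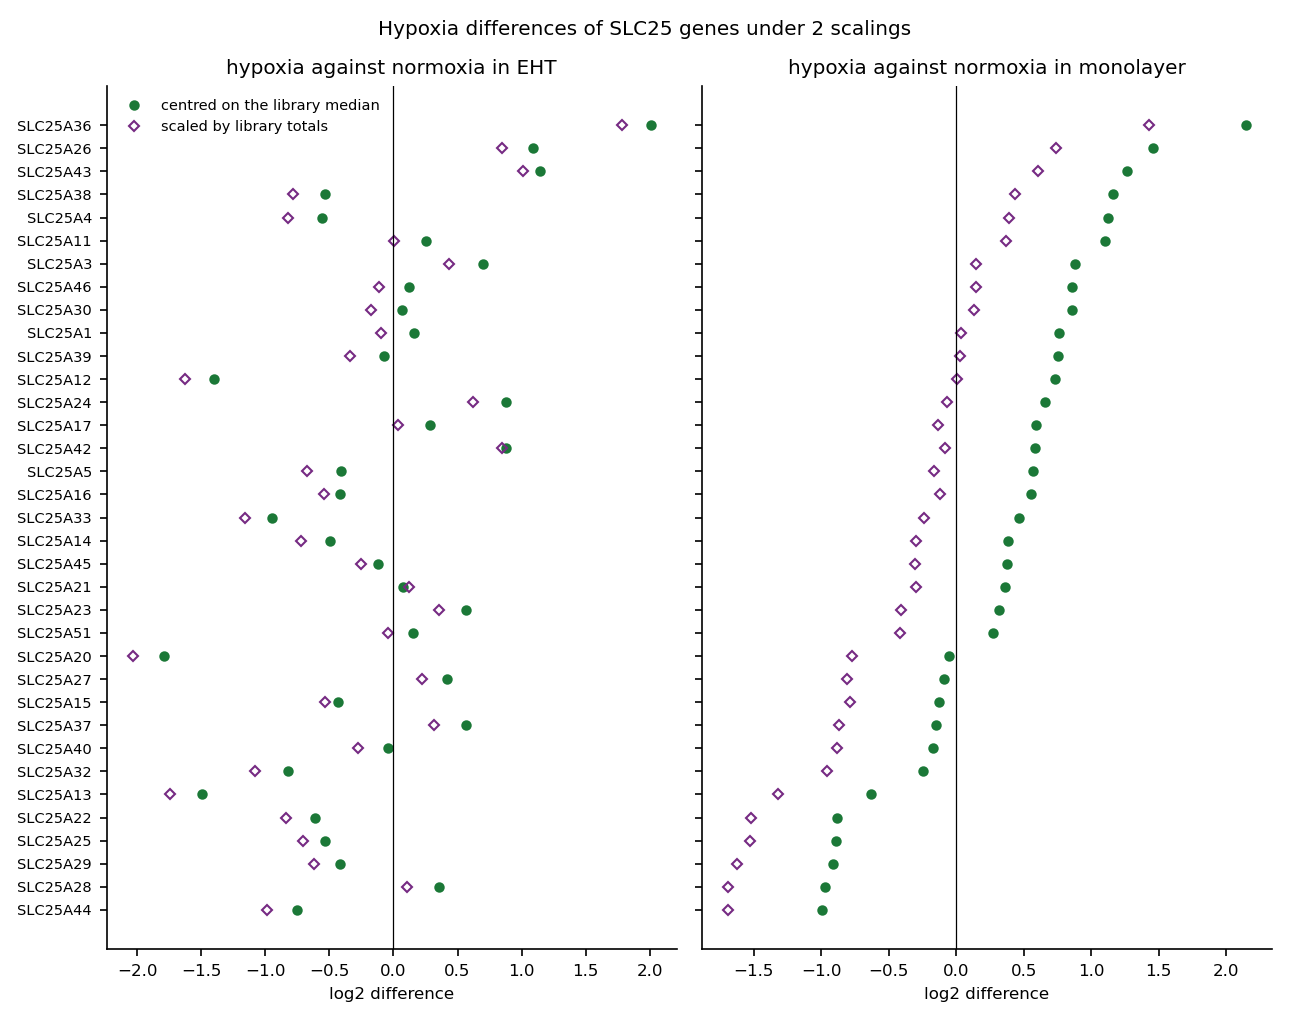
Log2 differences of 35 tested SLC25 genes for hypoxia against normoxia in EHT (left) and in monolayer (right), from values centred on the library median (filled circles) and from reads scaled by library totals (open diamonds). In monolayer the diamonds lie left of the circles throughout, and 3 genes that were called higher on centred values, SLC25A5, SLC25A17 and SLC25A24, lie below 0 with library totals.

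Ratios of related carriers within a library do not depend on scaling. Of 10 pairs, 7 could be tested for culture and for oxygen, 14 tests in all, by exact permutation within the other factor, for which the smallest p is 0.005. The log2 ratio of SLC25A24 to SLC25A23 was 2.58 ± 0.53 in EHT hypoxia, 2.34 ± 0.26 in EHT normoxia, 1.496 ± 0.06 in monolayer hypoxia and 1.13 ± 0.30 in monolayer normoxia (SD, n = 3 each). It was 1.15 higher in EHT than in monolayer (exact p = 0.005, adjusted p = 0.035), with no overlap of the cultures. The ratio of SLC25A33 to SLC25A36 was -4.29 ± 0.36 in EHT hypoxia, -0.90 ± 0.50 in EHT normoxia, -4.07 ± 0.42 in monolayer hypoxia and -2.29 ± 0.73 in monolayer normoxia (SD, n = 3 each). It was lower in hypoxia than in normoxia, with a difference of -2.59 (exact p = 0.005, adjusted p = 0.035), and SLC25A33 held 4.82% of the pair's reads in EHT hypoxia, against 35.1% in EHT normoxia, and 5.71% in monolayer hypoxia, against 17.7% in monolayer normoxia.

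The ratio of SLC25A24 to SLC25A25 was 1.82 higher in hypoxia (exact p = 0.01, adjusted p = 0.0467), and the adjusted p passed 0.05 in 6 of 12 omissions of 1 library (up to 0.0933). SLC25A12 over SLC25A13 was 1.04 higher in hypoxia (exact p = 0.03, adjusted p = 0.084), and 1.41 higher without EHT hypoxia replicate 3, where the adjusted p was 0.0233. The muscle translocase SLC25A4 held 35.3% ± 2.7 of the reads of SLC25A4 and SLC25A5 in EHT hypoxia, 37.9% ± 4.6 in EHT normoxia, 44.6% ± 2.7 in monolayer hypoxia and 35.3% ± 4.3 in monolayer normoxia (SD, n = 3 each). Its log2 ratio to SLC25A5 passed no test for culture (-0.20, exact p = 0.285) or for oxygen (0.20, exact p = 0.29). Within single cultures or oxygen conditions no exact test of 3 against 3 libraries can go below 0.1.

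**Figure D5:**
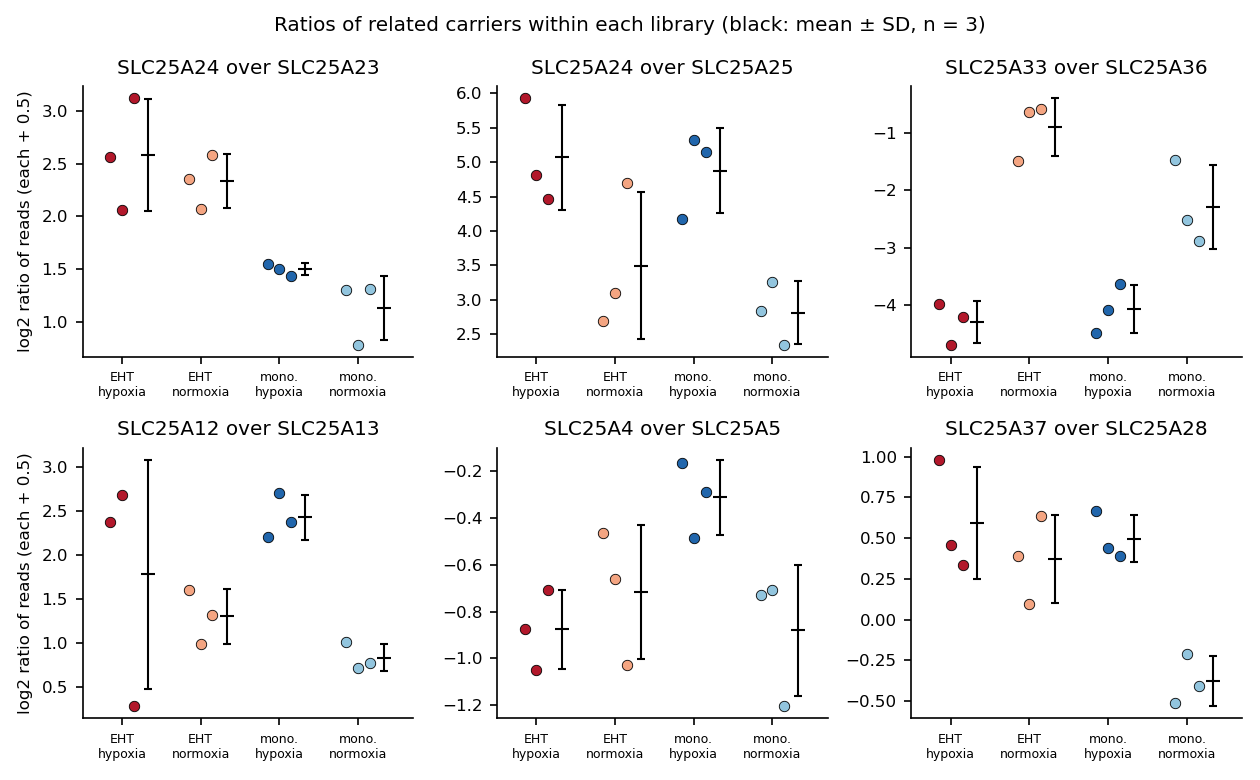
Log2 ratio of reads of 6 pairs of related SLC25 genes in each library (points) with the mean ± SD of each group (black, n = 3), the groups being EHT hypoxia, EHT normoxia, monolayer hypoxia and monolayer normoxia ("mono." on the axis). SLC25A24 over SLC25A23 is above 2 in all 6 EHT libraries and under 1.6 in all 6 monolayer libraries, and SLC25A33 over SLC25A36 is lower in hypoxia in both cultures.

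Other genes of mitochondrial transport were counted from lists. MPC1, a subunit of the pyruvate carrier outside the SLC25 family, fell by 1.10 log2 in EHT hypoxia and had an interaction of -2.25, while its centred rise of 1.15 in monolayer hypoxia was 0.43 and not called with library totals. VDAC1 and VDAC2, channels of the outer membrane, rose in hypoxia in both cultures, by 0.86 and 1.39 in EHT and by 0.97 and 1.48 in monolayer, of which that of VDAC1 in monolayer was not called with library totals (0.24). VDAC3, of the same channels, fell by 0.46 log2 in EHT hypoxia. Its difference in monolayer hypoxia was 0.00 on centred values and -0.73 with library totals, where it was called (adjusted p = 0.000347). MCU, the calcium uniporter pore, was -1.55 in EHT against monolayer under hypoxia. Of 9 genes of the carrier import pathway, which inserts SLC25 proteins into the inner membrane, 4 fell and 1 rose in EHT hypoxia, TOMM22 by -0.92 and TIMM22 by -1.15 among those that fell. In monolayer hypoxia 1 was higher and 1 lower on centred values. With library totals 7 were lower and none higher in monolayer hypoxia, and 6 were lower and 1 higher in EHT hypoxia.

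Of 46 respiratory chain and ATP synthase genes, 4 rose and 19 fell in EHT hypoxia, against 2 and 27 with library totals. In monolayer hypoxia 17 were higher and 1 lower on centred values, but 1 was higher and 24 lower with library totals. Of 55 mitochondrial ribosomal protein genes, 3 rose and 16 fell in EHT hypoxia, against 2 and 25 with library totals. In monolayer hypoxia 16 were higher and 7 lower on centred values, but 1 was higher and 35 lower with library totals. Beside these counts, in monolayer hypoxia 27.8% of all genes were higher and 18.6% lower on centred values, and 9.33% and 49.8% with library totals. In EHT hypoxia the shares of all genes were 19.5% higher and 16% lower on centred values, and 13.4% and 25.1% with library totals. PPARGC1A, a cofactor that regulates mitochondrial genes, rose in hypoxia by 1.44 log2 in EHT and 2.24 in monolayer, and by 1.36 and 1.55 with library totals. Its relative PPARGC1B fell by 1.15 log2 in EHT hypoxia, rose by 1.45 in monolayer hypoxia and had an interaction of -2.60. PPARGC1B averaged 0.63 CPM in EHT hypoxia, 3.2 in EHT normoxia, 3.2 in monolayer hypoxia and 1.2 in monolayer normoxia. Of 8 tested regulators, 1 was higher and 2 lower in EHT hypoxia, and 3 higher and 1 lower in monolayer hypoxia. PPRC1, another of the 8, was lower in hypoxia with library totals, by -0.98 in EHT and -2.18 in monolayer. Over the same groups, 5 of 9 tested cardiomyocyte markers were called higher and none lower in monolayer hypoxia, 2 higher and none lower in EHT hypoxia, and 8 lower and none higher in EHT than in monolayer under hypoxia. Markers of other cell types moved too. Of 5 smooth muscle markers, 4 were higher in monolayer hypoxia than in normoxia and 5 lower in EHT than in monolayer under hypoxia. Of 6 epithelial markers, 5 were lower in monolayer hypoxia than in normoxia, with sums of 98.0 to 119.5 CPM in monolayer hypoxia and 1503 to 7474 CPM in monolayer normoxia, and 5 were lower in EHT than in monolayer in normoxia. All 5 markers of dividing cells were lower in EHT than in monolayer in normoxia. Of 8 fibroblast markers, 3 were higher and 3 lower in monolayer hypoxia than in normoxia. Of all genes, 18.5% were lower in EHT than in monolayer in normoxia (36.3% with library totals) and 19.7% in hypoxia. With library totals 3 cardiomyocyte markers, 2 smooth muscle markers and 1 fibroblast marker were higher in monolayer hypoxia. There 3 markers of dividing cells were lower, against 0 on centred values. The other marker counts given here were the same, except that 6 epithelial markers were lower in EHT than in monolayer in normoxia. Whether cell makeup bears on any SLC25 difference was not tested.

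The 11 members under the filter had few reads or none. SLC25A2 and SLC25A6 had 0 reads in all libraries, which allows up to 0.266 to 0.722 CPM in a library (3 reads over its total, counting error alone). That bound applies only if reads of these genes were counted, which was not tested. NDUFS6, NDUFA13 and UQCR10 of the respiratory chain also had 0 reads in every group. So did the mitochondrial ribosomal protein genes MRPL36, MRPL17 and MRPL35. SLC25A18, a glutamate carrier, and SLC25A52, a close copy of SLC25A51, had 1 read each. SLC25A41 was nearest to the filter, 0.75 log2 units above the lowest value with 46 reads in 10 libraries, and SLC25A21 lay just inside at 1.20. SLC25A31, SLC25A34, SLC25A35, SLC25A47, SLC25A48 and SLC25A53 make up the rest. The 11 tested members called in no comparison were SLC25A14, SLC25A15, SLC25A21, SLC25A22, SLC25A23, SLC25A25, SLC25A27, SLC25A32, SLC25A40, SLC25A45 and SLC25A51. A p that misses the threshold does not show that their levels were equal. Simulated 2-fold changes were recovered in 41.8% to 47.8% of cases in the comparisons of 2 groups and in 17.9% for the interaction. Far fewer genes changed in the simulation than were called in the data, and all its genes shared the same spread setting. These shares therefore need not hold for the members.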

How the data were processed

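The authors deposited 1 table of variance-stabilised values on a log2 scale, with 12 columns that each matched 1 sample. Per the submitters' processing notes the tools were HISAT2, featureCounts and DESeq2. Not given in the sources used here: their versions, the genome build, the annotation and the strand setting. Genes therefore carry no positions. Per the labels' protocols, an Ion Total RNA-Seq kit was used for the libraries and an Ion Proton for sequencing. Inverting the transformation gave whole reads for 100% of values within a tolerance of 0.01, so the counts behind the authors' values are known.

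Values were centred per library and fitted with limma 3.58.1 in R 4.3.3, with 1 mean per group over all 12 libraries and a mean-variance trend. Tests were two-sided. Ratios added 0.5 reads to each gene, and at low reads a log2 difference is smaller than the true fold. Named in full were the 4 smallest p per direction and comparison and 12 carriers listed by name; of related genes, up to 2 called per list, direction and comparison, except MDH1, MDH2 and GOT2, all named after their values were seen. The members and lists were chosen with earlier results of these data known. Alternatives were uncentred values, median-of-ratios scaling, quantile normalization, voom on recovered reads, library totals (chosen after the data were seen), other filters and variance models, array weights, the compared groups alone, a replicate block, other pseudocounts and leaving out libraries. On simulated data the fit recovered 94% to 98.5% of 4-fold changes between 2 groups and 77.6% for the interaction. These shares hold for the settings of the simulation alone. Figures used matplotlib 3.10.9. The figures draw 35 of the 36 tested members; 1 member is in the counts but not reported here by name.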

Additional observations from a re-analysis of the deposited data

Results flagged for a closer look

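The hypoxia difference was not the same in EHT and in monolayer for 9 members, by the interaction test of the limma fit. It was lower in EHT for SLC25A12 (-2.13 log2), SLC25A20 (-1.73), SLC25A38 (-1.70), SLC25A4 (-1.69), SLC25A33 (-1.41), SLC25A5 (-0.98), SLC25A11 (-0.85) and SLC25A39 (-0.83), and higher in EHT for SLC25A28 (1.33). With reads scaled by library totals the calls for SLC25A12, SLC25A20, SLC25A38, SLC25A4 and SLC25A28 stood, and those for SLC25A33, SLC25A5, SLC25A11 and SLC25A39 did not.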

How the results depend on the processing

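Of 66 member calls, 40 stood in every alternative except uncentred values and library totals, 62 with median-of-ratios scaling, 60 with voom, 42 with library totals and 11 on uncentred values, where the medians of libraries ran from 6.98 to 8.75. The sign turned on uncentred values for EHT against monolayer in normoxia in SLC25A24 (-0.22), SLC25A26 (-0.25) and SLC25A46 (-0.13), and with library totals for hypoxia in monolayer in SLC25A5 (-0.17), SLC25A17 (-0.13) and SLC25A24 (-0.0712). For EHT against monolayer in normoxia, centring added 0.74 log2 to the difference of each gene. Why the scales differ between libraries was not tested. On uncentred values 3 members were called for EHT against monolayer in normoxia, 3 in hypoxia, 6 for hypoxia in monolayer, 2 in EHT and 1 for the interaction, in place of 8, 15, 19, 15 and 9. Quantile normalization gave 13 for EHT against monolayer in normoxia, array weights gave 16 there and 15 for the interaction, fitting the compared groups alone gave 9 for hypoxia in EHT, and leaving out both EHT libraries numbered 3 gave 14 for the interaction. Counts over all genes moved the same way in each of these settings. Array weights, for example, gave 3386 higher and 2773 lower for EHT against monolayer in normoxia, in place of 2750 and 2234. Leaving out 1 library gave 3 to 13 calls for EHT against monolayer in normoxia, 11 to 15 in hypoxia, 16 to 20 for hypoxia in monolayer, 10 to 14 in EHT and 8 to 14 for the interaction. For the log2 ratio between hypoxia and normoxia it gave 0.81 to 1.41 for SLC25A12 over SLC25A13 and 1.60 to 2.12 for SLC25A24 over SLC25A25. The replicate block gave 9, 14, 18, 15 and 9 calls. Samples were not paired by number in the main fit, since same-numbered libraries correlated above 0.1 throughout in no comparison. These correlations, of deviations from group means, ran from -0.06 to 0.33, the highest in EHT replicate 2 between hypoxia and normoxia. With 3 libraries per group they cannot settle whether numbers pair samples. Low reads limit members such as SLC25A21, as the lowest possible centred value differs between libraries, -5.75 to -3.98.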
